A study of Komagataella phaffii with 18 samples.

Results

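The set described here holds 81 features of *Komagataella phaffii*, chosen from 4831 eligible features of the 5341 in the tables. Each was at least 2-fold higher in acetate medium than in YPD in wild type, while the ratio stayed under 2 in both strains that keep a single mating type. In acetate these 81 features were at least 2-fold higher in wild type than in either single-type strain. These limits chose the members, so the values they used are given as a description, and counts of members called in those contrasts support nothing about the set. The label under which the set was proposed, features induced by acetate only in wild type, rests on the 2-fold limit: 9 of the 80 members that could be tested also passed a test for a rise in a-type or α-type, by less than 2-fold on the scale of the rule. Such rises were called for 4 members in a-type, beside 20.3% of all features tested, and for 8 in α-type, beside 22.3%. The rule caps them, and the share of all features rising in either strain was not computed. These calls varied with the libraries and the processing. The 8 rises in α-type became 1 to 5 when any 1 of its 6 libraries was left out, and the 4 in a-type became 2 without acetate replicate 1 or 3. Leaving out a library also leaves only 2 in its group. With the compared libraries fitted alone the rises were 4 in α-type and 1 in a-type. With DESeq2 they were 9 and 4, and with upper-quartile scaling 11 and 4. The set is described here by its rule.

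*K. phaffii* is a methylotrophic yeast that is widely used to produce recombinant proteins. Wild type is homothallic: a haploid cell can change between the a and α mating types by inverting a segment of chromosome 4, so a culture can come to hold cells of both types, which can mate with each other. A heterothallic strain is fixed in 1 type and has no partner of the opposite type in its own culture. Mating in this yeast is induced by nutrient limitation and can be followed by meiosis and sporulation.

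Polyadenylated RNA of strain CBS2612 was sequenced in 18 libraries, 3 in each of 6 groups. The groups were wild type, a-type with the genotype dic1-2Δ(a) and α-type with the genotype dic1-2Δ(α), each sampled in YPD during exponential growth and after a shift of the same cultures to acetate medium for 24 h, which was meant to induce mating genes. Each mating type is represented by a single heterothallic genotype. Whether the 3 samples of a group were separate cultures is not stated, so the p-values measure only the spread between samples, and that spread may be technical. Medium, growth phase and time in culture changed together and cannot be told apart. In these bulk samples, fewer cells of a kind and less RNA per cell cannot be told apart either.

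Members were chosen on plain CPM, which are the deposited estimated counts scaled by the total of their library. A feature was eligible if it lay on chromosomes 1 to 4, had a length above 300 bases and a serial number of at least 75, which left 4831 of 5341. Ratios are of group means with 5 CPM added to both. Of the eligible features, 3378 had at least 20 CPM in acetate wild type, 172 of these were at least 2-fold above both single-type strains in acetate, and 160 of these had a-type and α-type within 2-fold of each other. Among the 132 of these that were at least 2-fold higher in acetate than in YPD in wild type, 81 stayed under that ratio in both single-type strains, 26 reached it in both and 25 in 1 of them. The 81 members are 1.68% of the eligible features.

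The deposited IDs carry no gene names, and 0 of 5341 matched the reference gene table, so members are given by ID without the common prefix PP7435_ and no function is assigned to any of them. Of the members, 18 lay on chromosome 1, 24 on chromosome 2, 21 on chromosome 3 and 18 on chromosome 4, which is 1.21%, 1.96%, 1.78% and 1.91% of the eligible features of each. Their coding length had a median of 1323 bases and ran from 321 to 7659, beside a median of 1212 over all eligible features. No member had an estimated count further than 0.01 from a whole number, whereas 51 eligible features did.

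Total estimated counts per library ran from 234044 to 309362 in YPD and from 637339 to 765524 in acetate. A single count was thus worth 3.23 to 4.27 CPM in a YPD library, and low YPD values rest on few counts. The median coefficient of variation between the 3 libraries, over members, was 9.51% for wild type, 17.1% for a-type and 18.5% for α-type in acetate, against 33.5% to 36.3% in the 3 YPD groups.

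Together the 81 members took a small share of the estimated counts in every group except acetate wild type. In acetate wild type they held 5.82%, 6.61% and 6.15% of all estimated counts in the 3 libraries. On the same medium a-type had shares of 0.867%, 0.858% and 0.876%, and α-type had 0.913%, 0.972% and 0.906%. In YPD the share was 1.05%, 1.14% and 1.06% for wild type, 1.11%, 1.18% and 1.31% for a-type, and 1.25%, 1.19% and 1.17% for α-type. The acetate wild-type libraries lay far above all the others, and the single-type strains were lower in acetate than in YPD in every library. The 5 highest members made up 29.8% of the set's sum in acetate wild type and the 10 highest 48.7%.

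**Figure D1:**
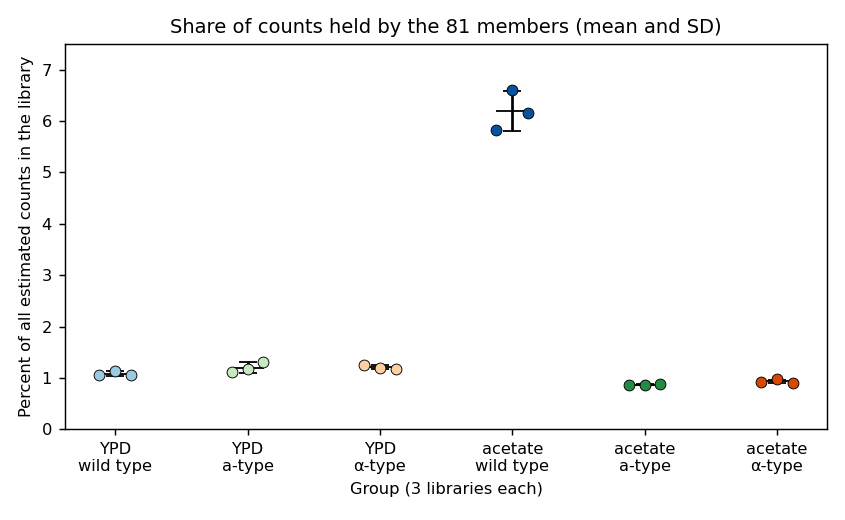
Percent of all estimated counts held by the 81 members (vertical axis) in each of the 18 libraries, by group (horizontal axis). Points are libraries, and lines with bars are the mean and SD of 3. Acetate wild type lies at 6.19% ± 0.393, and the other 5 groups have means of 0.867% to 1.21%.

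Per feature, acetate wild type again had the highest median, but the lower single-type share in acetate was not general. For 68 members both single-type acetate to YPD ratios lay between 0.5 and 2. In a-type these 68 held 0.856% of estimated counts in YPD and 0.809% in acetate. In α-type they held 0.830% and 0.854%. The median over members of the group mean was 365 CPM in acetate wild type, 55.3 CPM for a-type on acetate and 65.1 CPM for α-type on acetate. In YPD it was 51.4 CPM for wild type, 74.8 CPM for a-type and 65.3 CPM for α-type. The median ratio of acetate wild type was 5.33 to a-type and 4.57 to α-type, and that of acetate to YPD was 4.64 for wild type, 0.940 for a-type and 1.04 for α-type. Over all eligible features the same 5 medians were 0.760, 0.775, 0.888, 0.972 and 1.05. The rule sets only a lower limit of 2 on the wild-type ratios, and 45 members were at least 4-fold and 20 members at least 10-fold above the higher of the 2 single-type strains in acetate. Another 29 members were under 3-fold.

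The 3 acetate wild-type libraries lay above all 6 acetate single-type libraries for 80 of 81 members, beside 8.61% of eligible features. The exception was Chr3-0304, one of the lowest members, at 40.9, 9.85 and 33.0 CPM in acetate wild type. The wild-type acetate libraries lay above the wild-type YPD libraries for 81 of 81, beside 24.1% of eligible features. Both separations belong to contrasts that the rule used. Among the 3 acetate wild-type libraries, replicate 2 was the highest for 48 members, replicate 3 for 21 and replicate 1 for 12, whereas replicate 2 was the highest for 1307 of the 4831 eligible features.

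**Figure D2:**
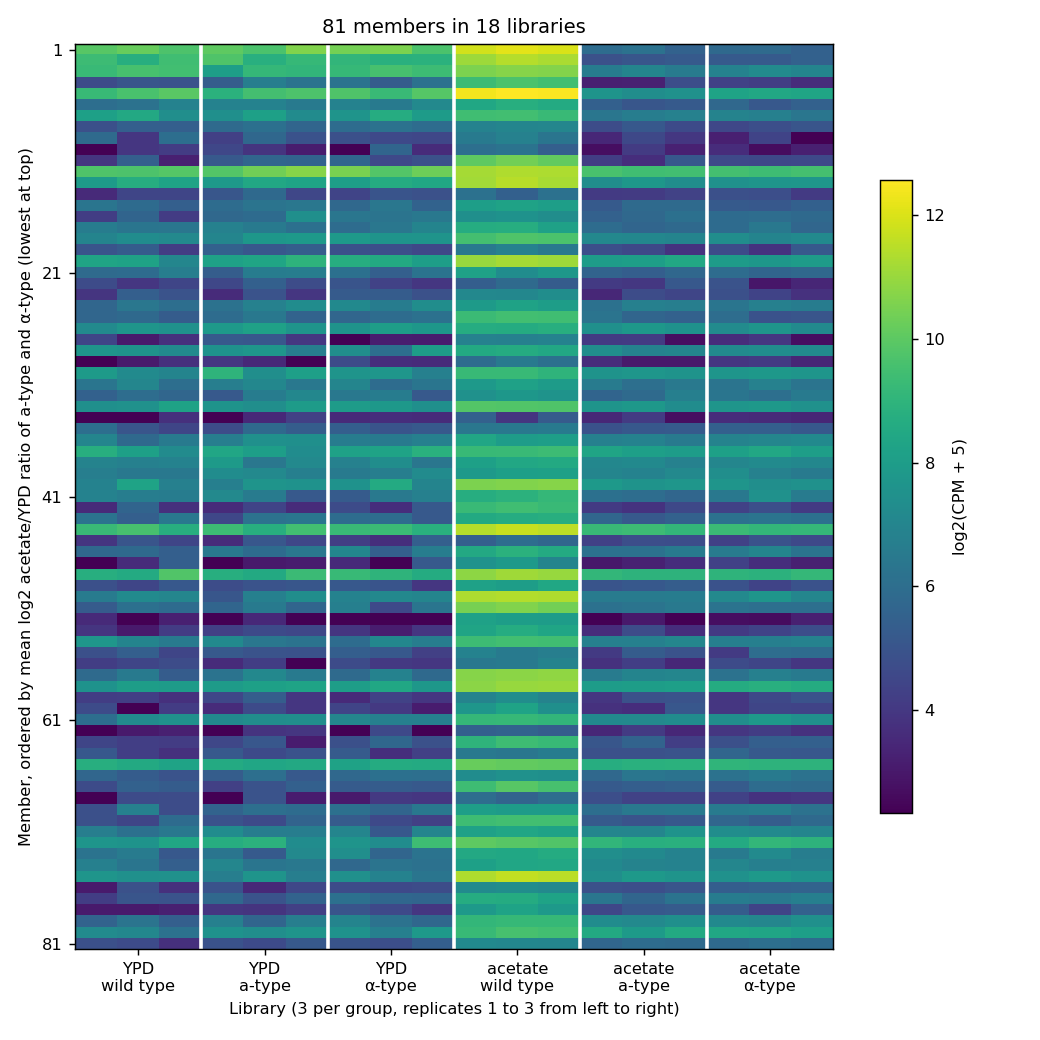
Levels of the 81 members (rows) in the 18 libraries (columns, grouped by strain and medium), as a colour scale of log2(CPM + 5). The acetate wild-type columns stand out in nearly every row, and in the top rows the single-type acetate columns are darker than the YPD columns. Rows run from the lowest to the highest single-type acetate to YPD ratio.

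The highest member by CPM in acetate wild type was Chr2-0942, at 5404, 6094 and 5774 CPM. It had 195, 159 and 176 CPM for a-type on acetate and 303, 351 and 323 CPM for α-type on acetate. In YPD it had 598, 789 and 983 CPM for wild type, 467, 727 and 837 CPM for a-type, and 847, 608 and 921 CPM for α-type. The YPD libraries of the 3 strains overlapped, and in acetate wild type lay above and both single-type strains below that common range. Its acetate to YPD ratio was 7.25 for wild type, 0.266 for a-type and 0.415 for α-type. All 3 acetate α-type libraries lay above all 3 acetate a-type libraries.

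Chr3-0555 had the largest acetate ratio of wild type to the higher single-type strain. It had 3791, 4574 and 4109 CPM in acetate wild type, 56.4, 68.2 and 41.4 CPM for a-type on acetate and 52.4, 53.6 and 40.8 CPM for α-type on acetate. In YPD all 9 libraries lay between 806 and 1579 CPM, with overlap between the strains. Acetate wild type was 69.0 times a-type and 77.2 times α-type. The acetate to YPD ratio behind this was 4.23 for wild type, 0.0525 for a-type and 0.0435 for α-type. Chr1-0699 likewise lay above YPD in wild type and below it in the single-type strains. It had 2173, 2778 and 2493 CPM in acetate wild type, 23.8, 28.8 and 32.2 CPM for a-type on acetate, 32.0, 32.7 and 40.8 CPM for α-type on acetate, and 430.2 to 848 CPM in the 9 YPD libraries.

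These 3 belong to 9 members whose acetate to YPD ratio was 0.5 or lower in both single-type strains. The others were Chr2-0416, Chr4-0221, Chr2-0638, Chr2-1132, Chr4-0279 and Chr1-0561. For 8 of the 9, all acetate libraries lay below all YPD libraries in both single-type strains. The exception was Chr1-0561, whose a-type libraries overlapped. The share of eligible features with such falls in both strains was not computed. Taken 1 strain at a time, 15 of 81 members fell without overlap in a-type, beside 21% of eligible features. In α-type 17 did, beside 23.4%. These counts take falls of any size, were near the background and are no result about the set. The 9 together went from 0.349% of estimated counts in YPD to 1.60% in acetate for wild type, whereas a-type went from 0.335% to 0.0536% and α-type from 0.370% to 0.0717%.

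Chr2-0416, another of the 9, had a smaller ratio in wild type. It had 1494, 1685 and 1629 CPM in acetate and 618, 765 and 697 CPM in YPD there, a ratio of 2.30. In acetate it had 95.01, 123 and 92.0 CPM for a-type and 111, 148 and 121 CPM for α-type, from 262 to 562 CPM and 579 to 764 CPM in YPD. The single-type acetate libraries did not overlap with any YPD library.

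Most members differed less between media in the single-type strains. In 68 of the 81, both single-type ratios lay between 0.5 and 2, and in the remaining 4, Chr2-0626, Chr3-0686, Chr4-0217 and Chr1-1359, 1 strain had a ratio of 0.5 or lower. Both ratios were above 1 for 26 members, both were at or below 1 for 29, and for 26 the strains lay on different sides of 1. All acetate libraries lay above all YPD libraries for 5 members in a-type, beside 24.1% of eligible features, and for 16 in α-type, beside 28.4%. They lay below for 15 members in a-type, beside 21% of eligible features, and for 17 in α-type, beside 23.4%. The rule caps the rises, so nothing is read from the first 2 counts, and the last 2 were near the background.

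**Figure D3:**
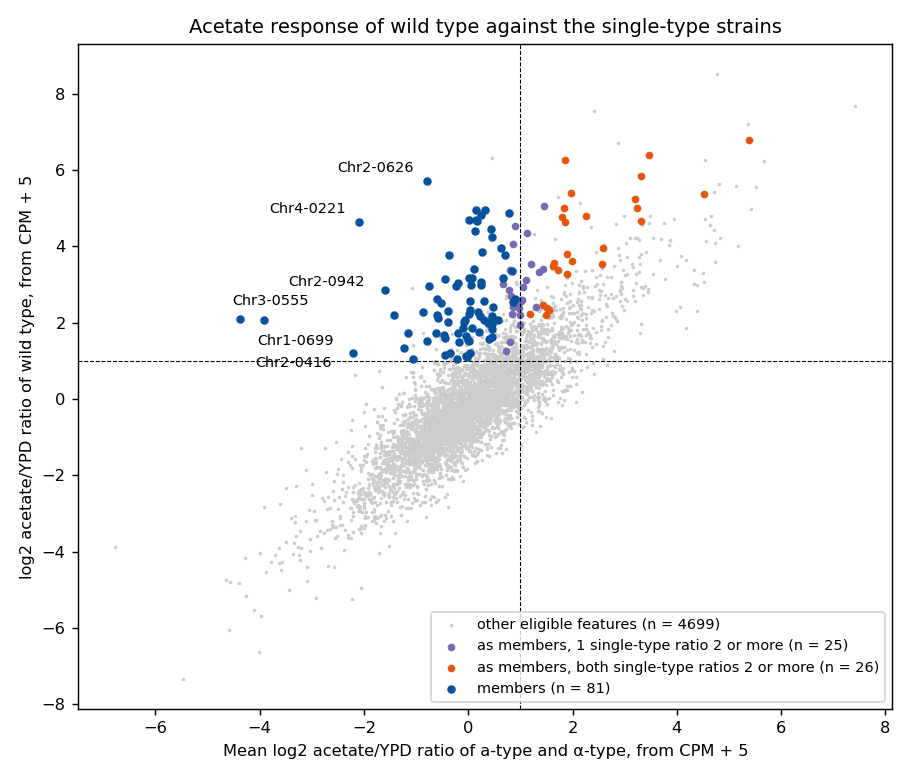
Log2 ratio of acetate to YPD in wild type (vertical axis) against the mean of the a-type and α-type log2 ratios (horizontal axis), each from group mean CPM + 5. Blue points are the 81 members, orange and purple points the 26 and 25 features that met the other limits but reached 2-fold in both or 1 of the single-type strains, grey points the other eligible features, and dashed lines mark 2-fold. Members spread along the horizontal axis from Chr3-0555 and Chr1-0699 at the left to the 2-fold limit.

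Chr3-0881 is an example of a member with single-type ratios near 1. It had 2757, 3329 and 2964 CPM in acetate wild type, 604, 650.3 and 550.3 CPM for a-type on acetate and 630.4, 545 and 556 CPM for α-type on acetate. The 9 YPD libraries ran from 420.2 to 768 CPM. The single-type acetate libraries lay inside that range, and only acetate wild type left it. On the deposited TPM scale, which accounts for length, this was the highest member in acetate wild type, at 4502 ± 414 TPM (SD, n = 3), within the spread of the next, Chr2-0942 at 4161 ± 265 TPM. Chr3-0555 followed at 2963 ± 286 TPM and Chr4-0222 at 2260 ± 116 TPM.

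The consecutive IDs Chr1-0124 and Chr1-0125 were both among the highest. Chr1-0124 had 2610.3 ± 89.5 CPM in acetate wild type, 92.2 ± 1.5 CPM for a-type on acetate, 154 ± 40.2 CPM for α-type on acetate and 119 ± 26.6 CPM in YPD wild type (SD, n = 3). Chr1-0125 had 2915 ± 284, 197 ± 33.6, 196 ± 29.2 and 183 ± 14.0 CPM in the same groups. The acetate ratio of wild type to the higher single-type strain was 16.5 for Chr1-0124 and 14.4 for Chr1-0125.

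Several members were low in every group but acetate wild type. Chr2-0626 had 1038, 1343 and 1098 CPM there, 13.4, 7.58 and 30.7 CPM for a-type on acetate, 18.9, 18.3 and 18.9 CPM for α-type on acetate, and 4.27 to 46.9 CPM in the 9 YPD libraries. Its acetate to YPD ratio of 52.2 in wild type was the highest of the set. Chr2-1133 had 618, 679 and 618 CPM in acetate wild type and 6.72 to 44.4 CPM in the 15 other libraries. Chr2-1207 had 1396, 1601 and 1330.5 CPM there and 19.0 to 104 CPM elsewhere. None of the other libraries of these 3 members reached the acetate wild-type range.

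Chr1-0080 had almost no counts outside acetate wild type. Its 3 acetate wild-type libraries held 289, 255 and 246 CPM, or 550 counts in all. Over the 3 libraries of each other group it had 2 counts in a-type on acetate, 5 in α-type on acetate, 3 in YPD wild type, 2 in YPD a-type and 0 in YPD α-type. By counts and library totals, acetate wild type was 262 times acetate a-type (95% exact interval 72.3 to 2172) and 72.7 times YPD wild type (24.7 to 353), and these intervals cover counting error only. Chr3-0264 also rested on 3 counts in YPD wild type, against 517 in acetate wild type. In all, 8 members had a mean under 10 CPM in YPD wild type.

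**Figure D4:**
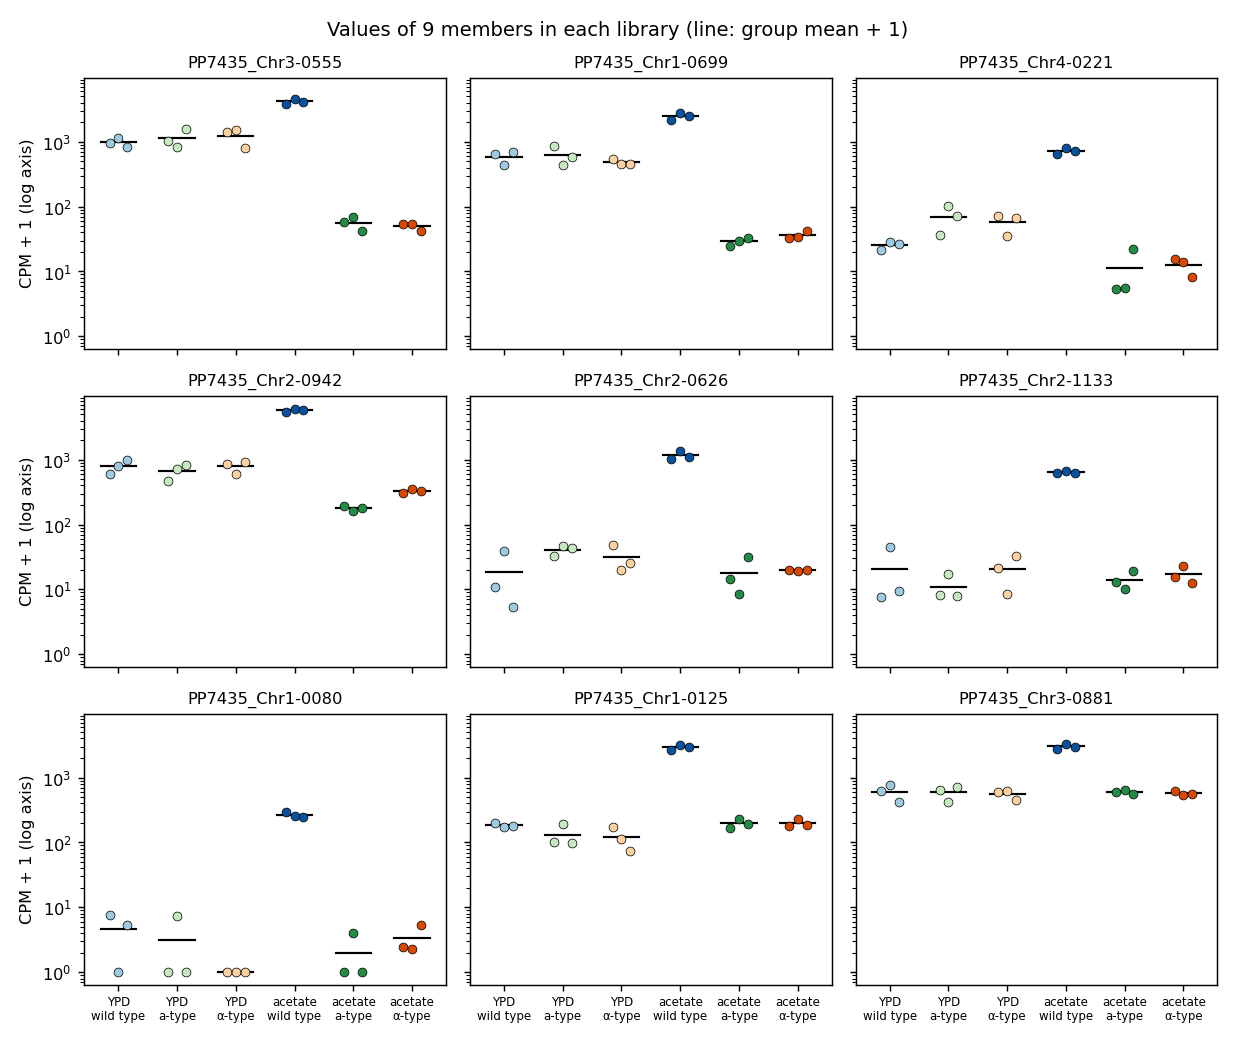
CPM + 1 on a log axis of 9 of the named members in each of the 18 libraries, by group. Points are libraries and lines are group means. Acetate wild type is the highest group for each, and for Chr3-0555, Chr1-0699, Chr2-0942 and Chr4-0221 both single-type strains lie lower in acetate than in YPD.

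Of the members, 11 had another member at the next or previous serial number of the same chromosome. Their coordinates were not analysed here. The 1 run of 3 was Chr4-0220, Chr4-0221 and Chr4-0222, and its members differed in level and form. Chr4-0222 had 2360.1, 2599 and 2504 CPM in acetate wild type, 675 to 788 CPM in the 6 acetate single-type libraries and 839.8 to 1671 CPM in the 9 YPD libraries. Chr4-0221 had 651, 805 and 711 CPM in acetate wild type, 4.45 to 21.5 CPM in the acetate single-type libraries and 20.2 to 100.2 CPM in YPD. Chr4-0220 was low, at 38.2, 59.1 and 47.1 CPM in acetate wild type, 14.6 to 24.8 CPM in the acetate single-type libraries and 7.07 to 38.4 CPM in YPD, so its acetate wild-type range overlapped slightly with YPD α-type. Per length in acetate wild type, Chr4-0222 had 2260 ± 116 TPM, Chr4-0221 1658 ± 159 TPM and Chr4-0220 42.0 ± 9.16 TPM.

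The other runs were pairs: Chr1-0124 with Chr1-0125, Chr1-0698 with Chr1-0699, Chr2-1132 with Chr2-1133, and Chr2-1192 with Chr2-1193. Neighbours within a pair could differ in the single-type strains. Chr1-0699 fell to 0.0531 times its YPD level in a-type, whereas Chr1-0698 rose to 1.80 times. Over the 126 eligible serial neighbours that are not members, the median acetate ratio of wild type was 0.831 to a-type and 0.830 to α-type. Of these neighbours, 5 (3.97%) were at least 2-fold above both single-type strains, beside 3.56% of eligible features. That last share counts the members, which all meet this limit by the rule, so it is too high as a background for the neighbours.

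In the fit over the whole table (edgeR, quasi-likelihood test, Benjamini-Hochberg adjusted p under 0.05), all 80 members tested were called higher in acetate wild type than in a-type, beside 16.6% of all features tested, and 80 were called higher than in α-type, beside 15.6%. In wild type, 80 were called higher in acetate than in YPD, beside 25.6%. The remaining member, Chr3-0304, did not pass the filter on low counts. In the acetate contrasts 0 members were called lower, beside 13% against a-type and 11.2% against α-type, since all 80 differences were positive. The rule used these contrasts, and nothing is read from the counts. Upper-quartile scaling in place of TMM moved the median log2 difference of all features from -0.08 to -0.28 for acetate wild type minus a-type and from -0.07 to -0.29 for wild type minus α-type. It changed the share of features called higher to 12.1% and 10.9% and the share called lower to 22.9% and 21.2%, and left all 80 members called higher.

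In a-type, 15 of the 80 tested members were called between media, beside 39.5% of all features, and in α-type 18, beside 41.9%. In a-type, 4 rose in acetate, beside 20.3% of all features, and 11 fell, beside 19.2%. In α-type, 8 rose, beside 22.3%, and 10 fell, beside 19.6%. The 10 that fell in α-type also fell in a-type: Chr2-0942, Chr3-0555, Chr2-1192, Chr4-0222, Chr1-0699, Chr2-0416, Chr4-0221, Chr2-0638, Chr2-1132 and Chr4-0279. Chr4-0217 fell in a-type only by this threshold, and the difference between the strains was not tested for it. The members that rose in both were Chr1-0698, Chr3-0166 and Chr2-0704. Chr3-0264 passed in a-type alone, and Chr1-0125, Chr1-1292, Chr3-0590, Chr2-1218 and Chr3-0807 in α-type alone. The share of all features that fell or rose in both strains was not computed. The dependence of the rises on single libraries is given at the opening. The falls ran from 10 to 12 in α-type and from 9 to 14 in a-type when 1 library was left out.

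The difference between strains in the response to acetate was positive for all 80 members tested, a sign that the limits of the rule fix. It passed the interaction test against a-type for 67 members, beside 5.1% of all features, and against α-type for 63 members, beside 3.41%. Negative differences were called for 0 members, beside 1.8% and 0.753% of all features. With upper-quartile scaling, 4.14% of all features were called higher and 2.72% lower against a-type, and 2.49% and 1.42% against α-type. Both tests were passed by 59, the a-type test alone by 8, the α-type test alone by 4 and neither by 9. The share of all features passing both tests was not computed. The counts are a description, and nothing is read from them.

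The rule does not name the contrasts between strains in YPD, although each YPD level enters it through the medium ratio. Among the 9 YPD libraries fitted alone, 54 of the 81 members passed the filter and edgeR called 0 of them between a-type and wild type, beside 0.0549% of all features, 0 between α-type and wild type, beside 0.0274%, and 0 between a-type and α-type, beside 0.0549%. DESeq2 also called 0 in each. With 1 or 2 of 3646 features called in each contrast, a count of 0 members is near the background and is no result about the set. At an unadjusted p under 0.05 there were 3, 4 and 0 members, beside 5.6%, 3.21% and 1.34% of all features. The fitted log2 difference of the tested members had a median of 0.13 for a-type minus wild type, with a range of -0.75 to 1.78. For α-type minus wild type the median was 0.14, with a range of -1.08 to 1.61. Over all features tested these medians were 0.04 and 0.02. The rule favours low YPD wild-type values, so no YPD trait of the set is read from this. In acetate, the median log2 difference of wild type minus a-type was 2.91 and that of wild type minus α-type 2.67.

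In YPD the wild-type mean was below that of a-type for 55 of 81 members, as for 3165 of 4831 eligible features, and below that of α-type for 52, as for 2742. A count made after the values were seen found all 3 YPD wild-type libraries below all 6 YPD single-type libraries for 4 members, Chr2-0326, Chr3-0264, Chr4-0221 and Chr4-0279, beside 2.75% of eligible features. YPD wild type lay above for 0 members, beside 0.683%. The limits on the medium ratios favour features with low YPD wild-type and high YPD single-type values, so nothing is read from these counts. Chr4-0221, for example, had 20.2, 27.3 and 25.6 CPM in YPD wild type, 35.3, 100.2 and 70.6 CPM in YPD a-type and 70.3, 34.2 and 66.3 CPM in YPD α-type. None of the 3 that were tested passed, and Chr3-0264 did not pass the filter on low counts.

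Between the single-type strains in acetate, the members lay close together, within the 2-fold limit of the rule. The α-type mean was above the a-type mean for 52 members and below it for 29, whereas over the eligible features α-type was above for 2223 and below for 2608. All 3 α-type libraries lay above all 3 a-type libraries for 12 members, beside 4.89% of eligible features, and below for 3, beside 7.35%. The rule used these acetate values and the contrast was not tested, so nothing is read from the counts.

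The rule was also applied to 2 replicates, and the ratios of the features so chosen were read in the replicate left out. The choice of these features did not use that replicate, but the rule and its limits were set with all 18 libraries known, and the samples of a group may be technical repeats, so the replicate left out is not fully independent. With replicate 1 left out, 85 features were chosen, and in replicate 1 alone 67 of them (78.8%) were at least 2-fold higher in acetate wild type than in a-type, in α-type and in YPD wild type, beside 3.15% of eligible features. With replicate 2 left out this was 68 of 89 (76.4%, beside 2.98%), and with replicate 3 left out 63 of 77 (81.8%, beside 3.08%). When the single-type limits were also required, 55 of 85 (64.7%), 48 of 89 (53.9%) and 51 of 77 (66.2%) met all 5, beside 1.74%, 1.51% and 1.72% of eligible features. The median ratios in the replicate left out were 4.91, 5.09 and 5.14 for acetate wild type to a-type, 4.01, 4.60 and 4.98 to α-type, and 5.10, 5.18 and 4.93 for acetate to YPD in wild type. In the single-type strains the median acetate to YPD ratio lay between 0.873 and 0.998 in a-type and between 0.989 and 1.15 in α-type. The 5 limits leave out the one between a-type and α-type and the level of 20 CPM. Of the chosen features, 69 of 85, 72 of 89 and 70 of 77 were members. These values are therefore a description and no test of the 81.

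**Figure D5:**
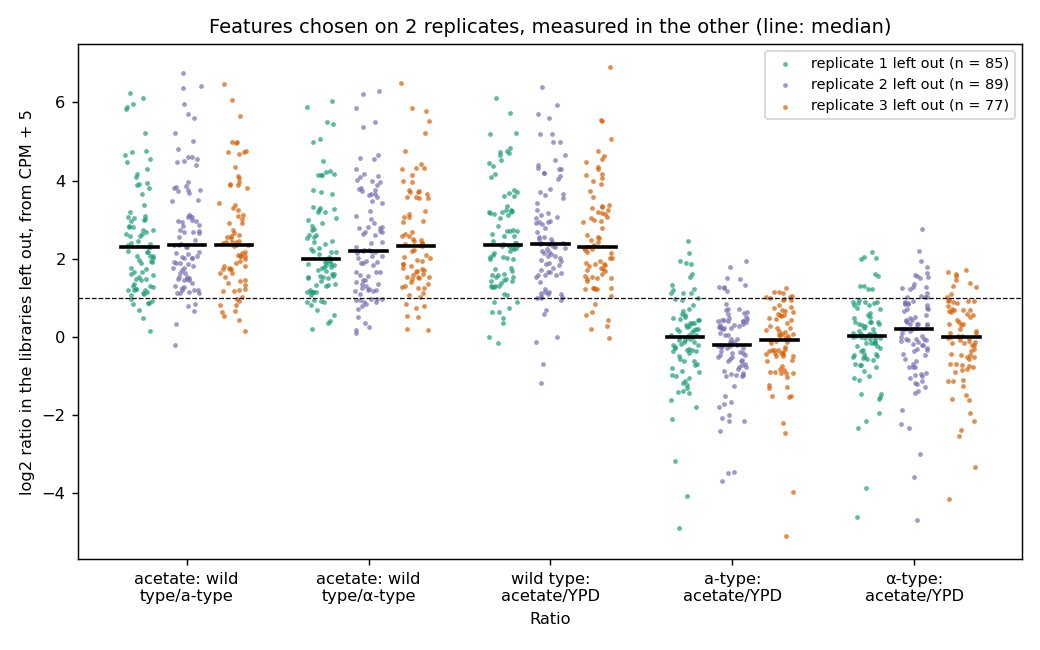
Log2 ratios (vertical axis, from CPM + 5) in the replicate left out, for the features chosen on the other 2 replicates, with 85, 89 and 77 features when replicate 1, 2 or 3 was left out. Points are features, lines are medians, and the dashed line marks 2-fold. The medians of the wild-type ratios correspond to 4.01 to 5.18 and those of the single-type acetate to YPD ratios to 0.873 to 1.15.

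The 26 features that met the other limits but rose at least 2-fold in both single-type strains and the 25 that did so in 1 of them were set beside the members. The 25 had medians of 30.1 CPM in YPD wild type, 300.5 CPM in acetate wild type, and 65.6 CPM for a-type and 77.6 CPM for α-type on acetate. Of the 26, the median in YPD wild type was 30.6 CPM and in acetate wild type 934 CPM, against 51.4 and 365 CPM for the 81 members, and the acetate medians were 174 CPM for a-type and 240 CPM for α-type. By acetate medians the 25 lay closer to the members, at 365, 55.3 and 65.1 CPM, than the 26 did. In acetate the 26 held 3.96% of the estimated counts of wild type, 1.19% of those of a-type and 1.33% of those of α-type, from 0.237% in YPD wild type. All 3 sets were chosen on these values, so the differences between them were not tested.

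Values just inside and just outside the limits of the rule were close. Just inside, Chr1-0654 had 967 ± 90.2 CPM in acetate wild type and 474 ± 51.7 CPM for a-type on acetate (SD, n = 3), a ratio of 2.03. Chr3-0264 had an acetate to YPD ratio of 1.96 in a-type, and Chr3-0786 lay close to the limit between a-type and α-type at 0.511. Just outside, Chr1-1326 had an acetate to YPD ratio of 2.01 in α-type, Chr2-0337 one of 1.98 in wild type, and Chr1-0347 an acetate ratio of wild type to α-type of 1.98.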

How the data were processed

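RNA of 18 libraries was analysed from the kallisto tables that the authors deposited, which hold, per the file headers, a length, an estimated count and a TPM value for each of 5341 features. Per the submitters' processing notes, the tools were kallisto, TopHat2, SAMtools, DESeq2, Trim Galore 0.4.2 and FastQC 0.11.2, with no role or order stated. What build was used is not given in the sources. The 9 deposited tables of normalized values were not used. CPM were computed from the deposited estimated counts. For tests, the estimated counts of all features were rounded to integers and fitted with edgeR 4.0.16 in R 4.3.3 (filterByExpr, TMM, quasi-likelihood test, Benjamini-Hochberg adjustment over all features tested, threshold 0.05). Strain contrasts used the 9 libraries of 1 medium, and medium contrasts and interactions all 18. DESeq2 1.42.0, other scalings, filters and thresholds, left-out libraries and a replicate block were alternatives. TPM, as deposited, served to compare levels between features. Lengths are nearly all multiples of 3 and are called coding lengths. Members, the rule and all comparisons were chosen with earlier results of these data known. Named members are the 8 highest in acetate wild type, the 8 with the largest acetate ratio, the 5 with the lowest single-type medium ratio, runs of 3, and the 3 nearest inside and outside the limits. Other IDs are listed where a count was small and were chosen after their values were seen. Some of the contrasts were also fitted to simulated counts, with changes planted only in features with higher expected counts. That run does not bear on features with low counts.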

Additional observations from a re-analysis of the deposited data

Results flagged for a closer look

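In the interaction of strain and medium (edgeR, Benjamini-Hochberg adjusted p under 0.05), 67 members were called with a larger response to acetate in wild type than in a-type and 63 with a larger response than in α-type. The sign of these differences was fixed by the limits that chose the members, and both contrasts share the wild-type libraries, so the tests support nothing about the set and the counts only describe it. The median difference of the log2 changes over the 80 members tested was 3.05 against a-type and 2.84 against α-type, beside -0.01 and -0.06 over all features tested.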

How the results depend on the processing

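The YPD libraries were shallow, which limits what the YPD contrasts and low members can show. Of 69 alternatives, 65 gave counts within 1.5 times the reported one, and reversals were not checked. The 65 include the YPD contrasts, where every count was 0, and the contrasts that the rule itself fixed. The tally therefore says little about stability. A ratio threshold of 3 left 48 members. With tests against a log2 fold change of 1, members called were 5 for acetate against YPD in a-type, 4 in α-type and 39 for the response of wild type minus α-type. TMM-adjusted CPM gave 121 members, the 81 among them, and deposited TPM gave 72, of which 67 were shared. With 1 library or replicate number left out, the rule gave 77 to 89 members (69 to 80 shared). Members called then ran from 80 to 81 for acetate wild type against a-type and against α-type, 79 to 80 for wild type between media, 11 to 17 in a-type, 12 to 16 in α-type, 61 to 67 and 52 to 61 for the responses against a-type and α-type, and 0 to 0 in each YPD contrast.

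Same-numbered acetate and YPD libraries of a strain did not deviate together (r from -0.06 to 0.06), so the numbers were not taken as pairs. With the replicate block, members called were 0 in each YPD contrast, 80 for acetate wild type against a-type, against α-type and against YPD, 14 between media for each single-type strain, and 63 and 51 for the responses against a-type and α-type.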
